A study of Mus musculus with 6 samples.

Results

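Interferon-stimulated genes are the genes that cells switch on when interferon, a cytokine of antiviral defence, binds its receptor. The genes described here are those rows of the expression table whose symbol stands on a list of 41 such genes, and they were sorted by role into STAT/IRF transcription factors, sensors of foreign nucleic acid, and effectors. Of the 41 listed, 39 had a row, out of 16426 genes in all, and all 39 reached 1 FPKM (sequenced fragments, corrected for the gene's length and the library's size) in each of the 6 libraries. Mx1 and Mx2 were not analysed here. The RNA came from 4T1-LM3, a murine line of mammary carcinoma cells, which had been kept in medium conditioned by other cells (CM) and so holding their secreted products. The 3 libraries called Tdo2high CM had medium from matrix fibroblasts (MFs) high in Tdo2, the enzyme that opens the path from tryptophan to kynurenine. The 3 libraries called control CM had a control conditioned medium of unstated origin, and no dose or duration is given for either medium. No genotype or other agent is named, and nothing says that the libraries of a group came from separate cultures, so the p-values here rest on a library-to-library spread that may be technical.

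Binding of type I interferon to its receptor activates the kinases Jak1 and Tyk2, which phosphorylate STAT proteins, Stat2 among them. With Irf9 these form a complex that binds the interferon-stimulated response element in the promoters of target genes. Many of the targets are themselves sensors and transcription factors of the same route, so the response feeds itself, and tumour cells can hold a part of it switched on without infection.

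The promoters of the members carried that element often. RefSeq promoter windows on GRCm38.p6, from 250 bases before to 50 bases after a transcription start, were matched for 31 of the 39 members (37 windows). The unmatched members were Dhx58, Zbp1, Oas2, Usp18, Parp9, Parp14, Rtp4 and Ifi27. The core of the response element was searched on both strands as a GAAA followed, after any 2 bases, by another GAAA, and 14 of the 31 members held it. It stood in 37.8% of the members' windows and in 3.44% of all 32851 windows. The gamma-activated site, searched as TTCNNNGAA (which reads the same on both strands), stood in 18.9% of the members' windows and in 8.30% of all windows. A match of letters is a description of the window and not a measured binding site.

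The 250 bases before the start are given for the 6 members that both changed with the medium and held the core. Of these, 3 rose and 3 fell. Capitals mark that core or its reverse complement, and each sequence runs 5′ to 3′ on the gene's own strand. Cxcl10 (chr5:92348890-92349139, minus strand), Rsad2 (chr12:26456453-26456702, minus strand) and Ifit1 (chr19:34640639-34640888, plus strand) rose. Bst2 (chr8:71537473-71537722, minus strand), Stat2 (chr10:128270248-128270497, plus strand) and Oas3 (chr5:120777660-120777909, minus strand) fell.
Cxcl10: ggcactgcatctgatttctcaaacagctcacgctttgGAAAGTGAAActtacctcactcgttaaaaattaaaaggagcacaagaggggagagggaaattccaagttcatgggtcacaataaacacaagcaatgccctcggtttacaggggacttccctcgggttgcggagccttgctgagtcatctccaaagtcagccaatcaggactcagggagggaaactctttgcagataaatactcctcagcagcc
Rsad2: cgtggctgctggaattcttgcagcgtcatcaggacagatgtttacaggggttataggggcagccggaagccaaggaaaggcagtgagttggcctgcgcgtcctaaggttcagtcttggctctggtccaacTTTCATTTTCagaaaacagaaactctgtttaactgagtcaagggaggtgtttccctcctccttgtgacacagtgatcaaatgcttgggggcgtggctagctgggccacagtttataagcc
Ifit1: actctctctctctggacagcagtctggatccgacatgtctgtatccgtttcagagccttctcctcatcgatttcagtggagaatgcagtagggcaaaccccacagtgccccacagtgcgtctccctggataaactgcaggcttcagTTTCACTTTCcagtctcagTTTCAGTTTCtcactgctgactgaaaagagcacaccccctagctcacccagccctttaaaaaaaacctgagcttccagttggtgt
Bst2: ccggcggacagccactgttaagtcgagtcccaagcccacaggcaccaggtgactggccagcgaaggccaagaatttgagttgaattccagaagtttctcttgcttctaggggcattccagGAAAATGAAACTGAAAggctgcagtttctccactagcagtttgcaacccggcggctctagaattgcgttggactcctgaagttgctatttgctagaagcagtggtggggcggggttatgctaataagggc
Stat2: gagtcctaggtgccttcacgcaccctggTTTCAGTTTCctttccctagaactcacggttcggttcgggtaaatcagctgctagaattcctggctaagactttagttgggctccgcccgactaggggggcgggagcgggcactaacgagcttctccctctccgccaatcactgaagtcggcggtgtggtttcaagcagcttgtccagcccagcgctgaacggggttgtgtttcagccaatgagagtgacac
Oas3: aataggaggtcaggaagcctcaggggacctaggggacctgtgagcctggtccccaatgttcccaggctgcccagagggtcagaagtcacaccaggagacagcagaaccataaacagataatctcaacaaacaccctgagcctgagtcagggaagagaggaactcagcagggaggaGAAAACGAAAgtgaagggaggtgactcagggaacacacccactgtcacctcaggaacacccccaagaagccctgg

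In Bst2 the cores overlap each other, starting 130 and 124 bases before the start, and a TTCNNNGAA match that begins 136 bases before the start overlaps the first of them. Ifit1 held separate cores 104 and 85 bases before its start. The other 3 changed members with a window, Irf7, Irf1 and Ifit2, had no match of the core in it, while Irf1 and Ifit2 held TTCNNNGAA 90 and 241 bases before a start. Among the members that did not pass the test, 8 of 22 with a window held the core, and Isg15 held 3 overlapping copies.

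The members were abundant in both media. The median of their control CM means was 49.8 FPKM, against 14.2 FPKM over the 10804 genes tested, and 33 of 39 ranked above the 75th percentile of those genes. A total of 37 members stayed at or above 20 FPKM in every library. Isg15, which encodes a ubiquitin-like protein that is coupled to other proteins, ranked 124 among 10804 tested genes, Bst2 ranked 157 and Irf7 ranked 267. Cxcl10 was the lowest member, and no value of it fell under 4.50 FPKM.

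The interferons themselves were close to the floor of the table. Of 11 ligand genes listed, 6 had a row, none reached 1 FPKM in any library, and the highest single value was 0.59 FPKM, for Ifnz. Ifnb1, the interferon that many cell types make first, was listed at 0.07, 0.07 and 0 FPKM with control CM and at 0, 0 and 0.30 with Tdo2high CM. The receptor chains for type I and type II interferon were all present. With control CM, Ifnar1 had 17.5 ± 0.191, Ifnar2 23.6 ± 1.61, Ifngr1 17.8 ± 0.569 and Ifngr2 27.0 ± 1.14 FPKM (SD, n = 3). Ifnlr1, the specific chain for type III interferon, was at 0.01 FPKM in 1 library and listed at 0 in the other 5.

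**Figure D1:**
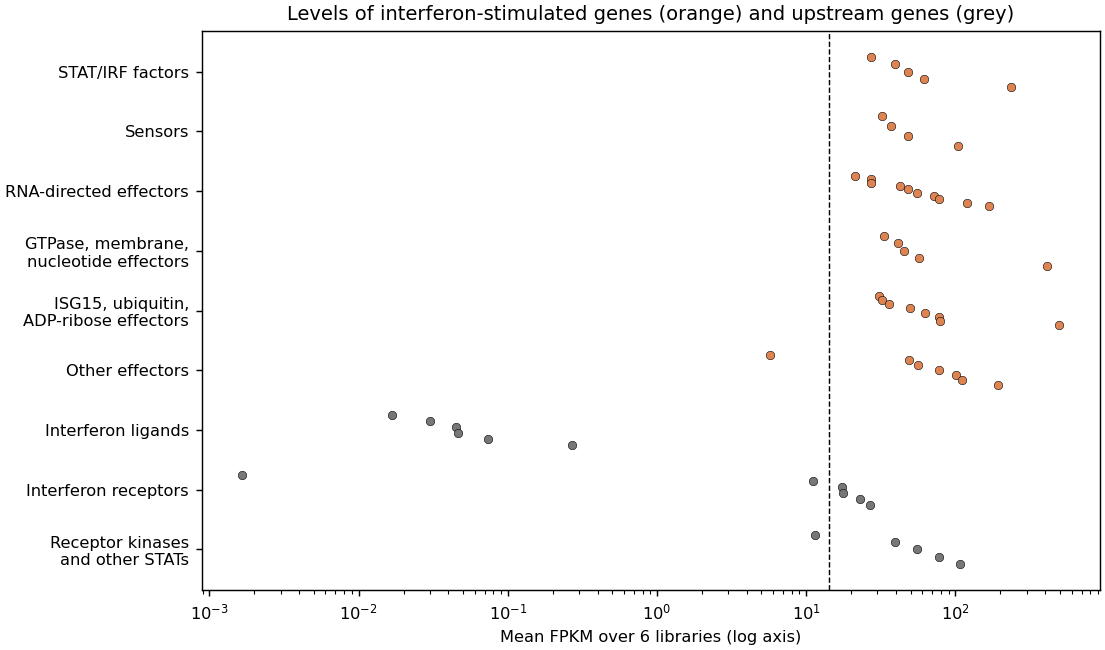
Mean FPKM over the 6 libraries (log axis) of each interferon-stimulated gene by role (orange) and of ligands, receptors, receptor kinases and other STATs (grey); the dashed line is the median control CM mean of the tested genes, 14.2 FPKM. All interferon-stimulated genes except Cxcl10 lie to the right of the line, and the ligands lie below 1 FPKM.

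After Tdo2high CM, 6 members fell and 4 rose. The difference between roles was not tested. Of the 5 STAT/IRF factors, Irf7, Irf1 and Stat2 fell, and the other two had fold changes below 0 that did not pass. Of 4 sensors none passed in either direction. Of 30 effectors with a row, 4 rose (Ifi27, Cxcl10, Rsad2 and Ifit1) and 3 fell (Bst2, Ifit2 and Oas3). The changes were small: 3 of the 10 reached 1.2-fold and none reached 1.5-fold.

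The call rests on limma with log2(FPKM + 1) and a Benjamini-Hochberg adjusted p below 0.05 over all 10804 tested genes. In that test 4.06% of all genes were called lower and 3.35% higher, 7.41% in all, against 10 of 39 members (25.6%). Abundant genes were called more often: among tested genes with a mean of at least 20 FPKM the share was 10.6%, against 9 of 38 members (23.7%). The groups did not overlap in 19 of 39 members (12 lower and 7 higher with Tdo2high CM), which is 48.7%, against 29.2% of all tested genes. Above a mean of 20 FPKM the shares were 47.4% of members and 34.4% of genes. The median log2 fold change of the members was -0.02, and that of all tested genes was -0.01. Of the 39 members, 21 had a fold change below 0 and 18 above 0, and of the 10804 genes 6095 had one below 0.

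**Figure D2:**
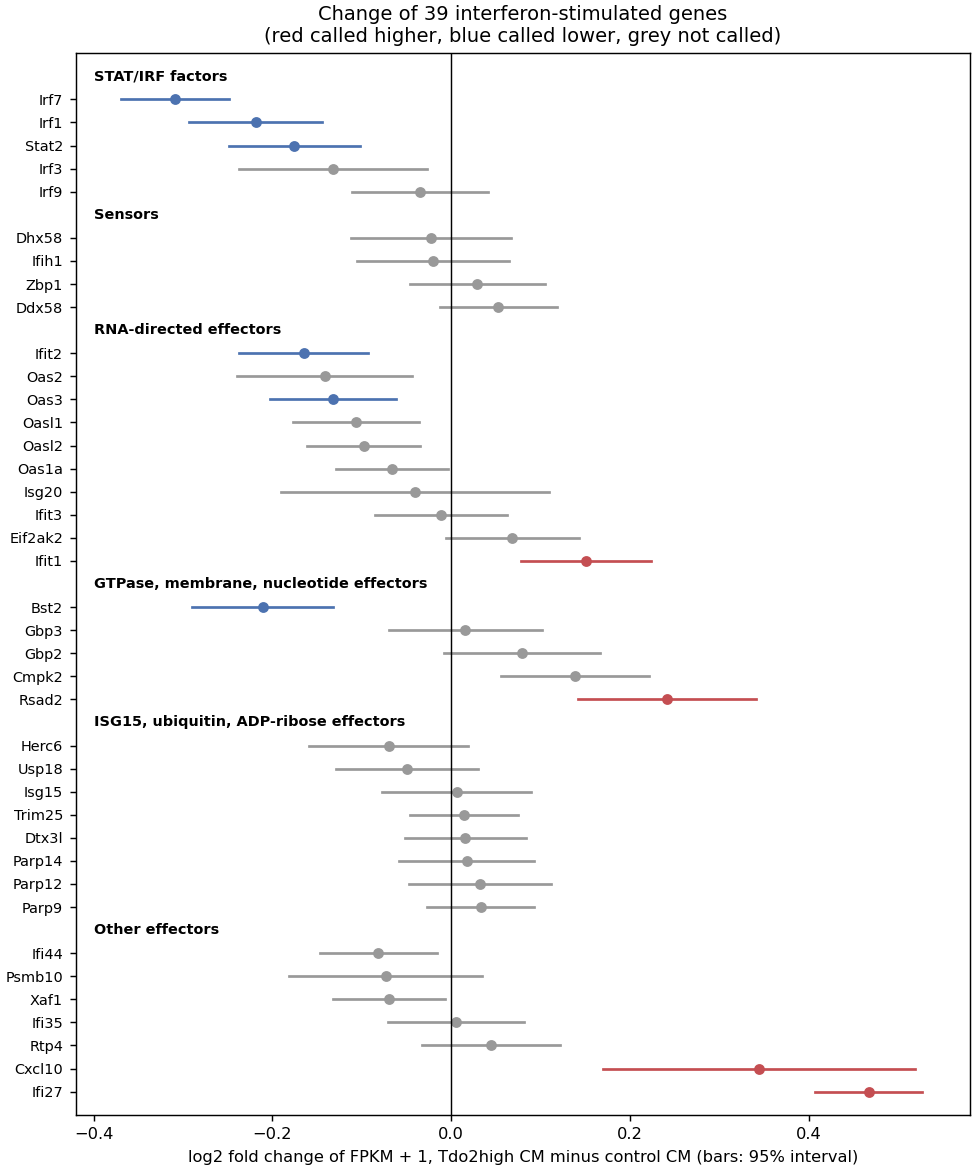
Log2 fold change on the FPKM + 1 scale (x axis, Tdo2high CM minus control CM) with its 95% interval from limma for 39 interferon-stimulated genes, grouped by role; red genes were called higher, blue lower and grey not called. The 5 STAT/IRF factors all have point estimates below 0, from -0.31 to -0.03, the 4 sensors lie near 0, and effectors fall on both sides.

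Among the transcription factors the largest change was that of Irf7, which amplifies the production of type I interferon. Its values were 266.90, 260.60 and 261.18 FPKM with control CM and 212.29, 215.83 and 208.07 with Tdo2high CM. The groups were far apart, and the log2 fold change was -0.31 ± 0.03 (SE; adjusted p = 0.000147 by limma), 19.3% below the control mean. Irf1, a factor induced by interferon gamma and by NF-kB, had 66.96, 66.75 and 65.19 FPKM with control CM and 55.28, 55.84 and 59.44 with Tdo2high CM. The highest Tdo2high CM library was still below the lowest control, and the log2 fold change was -0.22 ± 0.03 (adjusted p = 0.00462 by limma).

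Stat2, a partner of Irf9, had 43.64, 40.77 and 41.79 FPKM with control CM and 37.59, 36.95 and 36.82 with Tdo2high CM. The log2 fold change was -0.18 ± 0.03 (adjusted p = 0.0122 by limma). Irf9 did not pass the test and had 48.60, 49.94 and 47.31 against 47.98, 48.66 and 45.72 FPKM, groups that overlapped, with a log2 fold change of -0.03 (95% interval -0.11 to 0.04). Irf3, the factor that is activated by phosphorylation rather than by synthesis, had 28.29, 30.01 and 27.39 against 25.17, 25.08 and 27.71 FPKM. One control library was below the highest Tdo2high CM library, and the log2 fold change of -0.13 did not pass (adjusted p = 0.126 by limma).

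None of the 4 sensors passed, and their groups lay close together. Ddx58 (RIG-I), a helicase that detects viral RNA ends, had 48.24, 45.99 and 46.94 FPKM with control CM and 49.14, 49.10 and 48.29 with Tdo2high CM. Its groups did not overlap, though the nearest libraries were almost level, and its log2 fold change was 0.05 (95% interval -0.01 to 0.12). Ifih1, which detects long double-stranded RNA, had means of 32.6 ± 0.929 and 32.1 ± 1.33 FPKM. Dhx58, a related helicase that modulates the other two, had 38.20, 37.34 and 36.33 against 38.21, 37.31 and 34.62 FPKM. Zbp1, a sensor of Z-form nucleic acid that can trigger cell death, was the most abundant sensor, with 106.96, 102.16 and 99.50 against 102.58, 107.99 and 104.34 FPKM. Over the 4 sensors the 95% intervals reached from -0.11 to 0.12 on the log2 scale.

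Of the 10 RNA-directed effectors 2 fell, 1 rose and 7 did not pass. The oligoadenylate synthetases and their relatives make a messenger that activates an RNA-cutting enzyme, or resemble the enzymes that do. All 5 members of this family (Oas1a, Oas2, Oas3, Oasl1 and Oasl2) were lower in every Tdo2high CM library than in any control library, where the groups did not overlap in either direction in 34.4% of tested genes above a mean of 20 FPKM. Outside the list of 41, the relative Oas1g fell from 32.75, 33.00 and 30.66 to 28.39, 29.74 and 27.59 FPKM (adjusted p = 0.0364 by limma). Its call was lost in 7 of 16 alternative settings. Oas1c, another relative outside the list, had 8.48, 7.49 and 8.44 against 7.80, 8.02 and 8.51 FPKM, which overlapped. Of the 5, Oas3 alone passed, from 45.42, 43.15 and 44.93 to 41.38, 40.07 and 40.08 FPKM, with a log2 fold change of -0.13 ± 0.03 (adjusted p = 0.0331 by limma). That call was lost in 7 of 16 alternative settings, 5 of them fits without 1 library (every library except control CM replicate 2), where adjusted p ran up to 0.111.

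Oasl2, the most abundant of the family, had 177.36, 168.91 and 174.24 against 164.37, 161.94 and 159.72 FPKM (adjusted p = 0.0665 by limma). Oas1a had 125.15, 121.54 and 122.55 against 119.07, 119.06 and 114.47 FPKM (adjusted p = 0.188). The log2 fold changes of Oas2 and Oasl1 were -0.14 and -0.11, at adjusted p = 0.0828 and 0.0729 by limma. In all 16 alternatives the 5 fold changes stayed below 0. The Oas genes share sequence, so reads may be split between copies and their values are uncertain to that extent.

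The IFIT genes, which bind foreign RNA, went in opposite directions. Ifit1 rose from 53.95, 50.89 and 51.72 to 58.29, 59.25 and 56.58 FPKM, a log2 fold change of 0.15 ± 0.03 (adjusted p = 0.0229 by limma). Ifit2 fell from 28.78, 28.92 and 28.28 to 25.70, 24.75 and 25.92 FPKM, with -0.17 ± 0.03 (adjusted p = 0.0153). Neither pair of groups overlapped. Ifit3 lay between them at -0.01 (95% interval -0.09 to 0.06), with 81.80, 77.32 and 75.78 against 78.96, 77.53 and 76.45 FPKM. The 3 genes lie near each other on chromosome 19, with Ifit2 and Ifit3 6.58 kb apart and Ifit1 51.9 kb from Ifit3. Ifit3b, a relative that is not a member, lies between Ifit3 and Ifit1. It had 46.43, 43.17 and 45.98 against 49.04, 53.88 and 46.45 FPKM. These groups did not overlap, but Ifit3b did not pass (log2 fold change 0.135, adjusted p = 0.1445 by limma). Whether reads are split between Ifit3 and Ifit3b was not tested, so both values are uncertain to that extent. The call of Ifit1 ended in 6 of 16 alternatives, 4 of them fits that left out control CM replicate 2 or 3 or Tdo2high CM replicate 1 or 2 (up to adjusted p = 0.0815 by limma). That of Ifit2 was lost when control CM replicate 1 (0.0517) or Tdo2high CM replicate 2 (0.0577) was left out.

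The ratio of Ifit1 to Ifit2 within a library does not depend on how the libraries are scaled. It was 1.87, 1.76 and 1.83 with control CM and 2.27, 2.39 and 2.18 with Tdo2high CM. The exact two-sided permutation test gave p = 0.1, the smallest that 3 against 3 allows (0.114 adjusted over the 8 ratios compared, which were chosen after the values were seen). Ifit1 rose and Ifit2 fell without overlap, so this p-value was fixed by those changes and adds no evidence.

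The last members of this role did not pass. Eif2ak2, the kinase PKR that halts translation on double-stranded RNA, had 46.8 ± 0.924 and 49.1 ± 1.73 FPKM (adjusted p = 0.251 by limma). Isg20, an RNA exonuclease, had 21.5 ± 2.22 and 20.8 ± 1.10 FPKM, and it had the widest interval of the role, from -0.19 to 0.11.

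**Figure D3:**
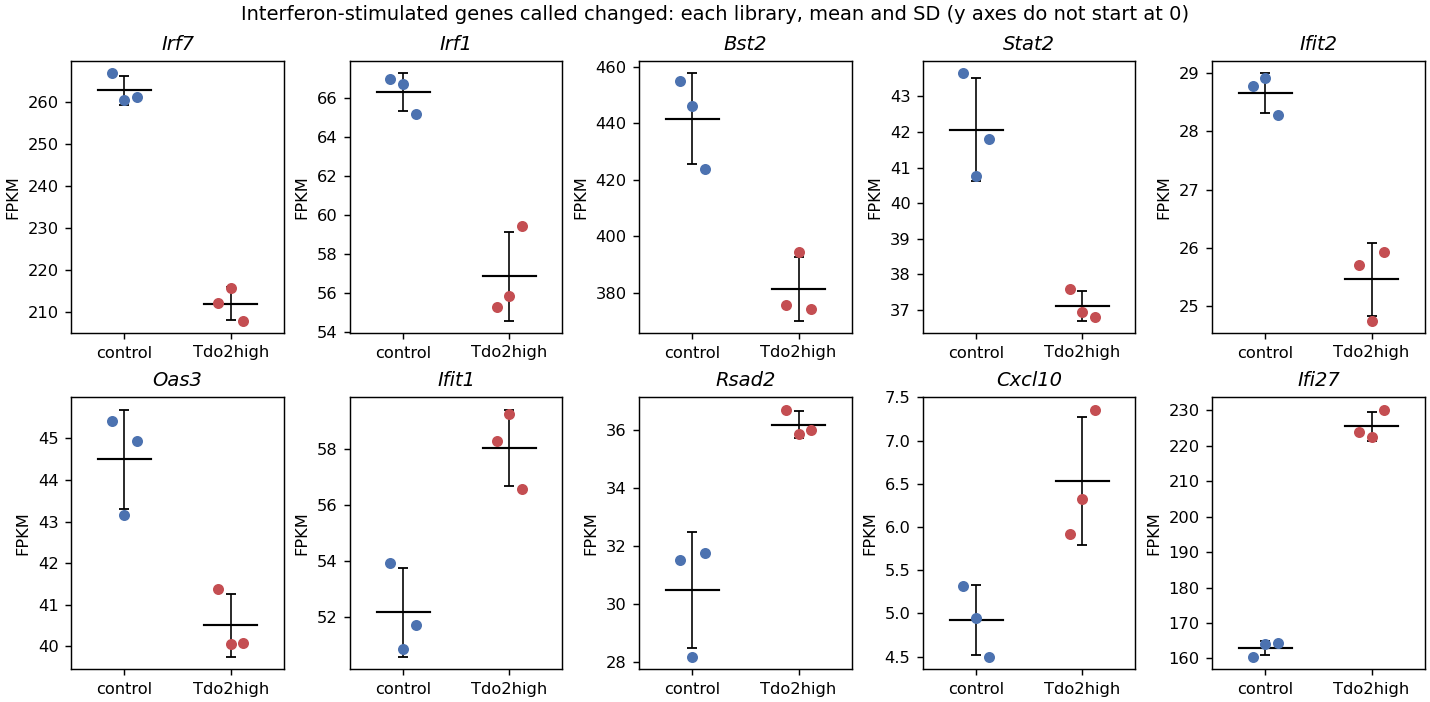
FPKM (y axes, which do not start at 0) of the 10 interferon-stimulated genes called changed, in each of 3 control CM and 3 Tdo2high CM libraries, with the mean (line) and SD (bars). In each panel the groups do not overlap; Irf7, Irf1, Bst2, Stat2, Ifit2 and Oas3 are lower and Ifit1, Rsad2, Cxcl10 and Ifi27 higher with Tdo2high CM.

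Among the membrane, GTPase and nucleotide effectors, 1 fell, 1 rose and 3 did not pass. Bst2 (tetherin), which holds budding virus particles at the cell surface, fell from 455.10, 446.05 and 423.86 to 375.62, 394.40 and 374.13 FPKM. The log2 fold change was -0.21 ± 0.04 (adjusted p = 0.00749 by limma), and it was the most abundant of the 10 changed members. Rsad2 (viperin), which makes a chain-terminating nucleotide, rose from 31.53, 28.19 and 31.76 to 36.71, 35.85 and 36.00 FPKM. Its log2 fold change was 0.24 ± 0.04 (adjusted p = 0.0114), and it lost the call when weakly expressed genes were tested too (0.0552).

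Cmpk2, a mitochondrial nucleotide kinase, lies 12.7 kb from Rsad2 on chromosome 12. It had 43.40, 42.91 and 42.28 against 49.87, 46.74 and 45.36 FPKM. The groups did not overlap, but the log2 fold change of 0.14 ± 0.04 just missed the threshold (adjusted p = 0.0510 by limma) and passed in 4 of 16 alternatives. The guanylate-binding GTPases Gbp2 and Gbp3 had log2 fold changes of 0.08 (95% interval -0.01 to 0.17) and 0.02 (95% interval -0.07 to 0.10). With control CM Gbp3 had 56.34, 53.83 and 59.63 FPKM, and with Tdo2high CM 57.41, 58.21 and 55.95, so its groups overlapped.

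None of the 8 members of the ISG15, ubiquitin and ADP-ribose role passed. Isg15 itself had 507.15, 499.77 and 468.27 FPKM with control CM and 495.97, 506.45 and 478.75 with Tdo2high CM, groups that overlapped almost fully (log2 fold change 0.01, 95% interval -0.08 to 0.09). Usp18, which removes ISG15 from proteins and restrains the type I receptor, had 79.88, 80.78 and 77.25 against 77.18, 79.63 and 73.07 FPKM. Trim25, a ubiquitin ligase that assists RIG-I, had 78.33, 78.10 and 79.20 against 78.72, 81.08 and 78.19 FPKM.

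The log2 fold changes of the other members of this role ran from -0.07 for Herc6, the ligase that couples ISG15 in mice, to 0.03 for Parp9. Parp9 and its partner Dtx3l, which act together as a ubiquitin ligase and ADP-ribosyltransferase, overlap on chromosome 16 in the RefSeq annotation, so their reads may not be fully separable. Their means were 61.8 ± 0.737 and 63.2 ± 0.840 FPKM for Parp9 and 32.2 ± 0.740 and 32.6 ± 0.0987 FPKM for Dtx3l. Parp12 and Parp14, which attach single ADP-ribose units, had log2 fold changes of 0.03 and 0.02. The intervals of the role reached from -0.16 to 0.11. Over all roles, each of the 29 members that did not pass had a 95% interval within 1.2-fold in either direction on the FPKM + 1 scale.

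Among the other effectors the largest change of any member was that of Ifi27, a small hydrophobic protein gene. It rose from 160.51, 163.99 and 164.22 to 223.96, 222.50 and 230.24 FPKM. The groups were far apart, and the log2 fold change was 0.47 ± 0.03 (adjusted p = 7.17e-06 by limma), a 1.38-fold rise. In the RefSeq annotation Ifi27 lies inside the span of Ifi27l2a on chromosome 12 (from 103433873 to 103443680), and the use of strand in counting is not given, so reads of these genes may not be fully separable and both values are uncertain to that extent. Cxcl10, a chemokine that attracts activated T cells, rose from 5.32, 4.95 and 4.50 to 5.92, 6.32 and 7.36 FPKM. That is 1.33-fold between the means, and the log2 fold change of FPKM + 1 was 0.34 ± 0.08 (adjusted p = 0.0277). The call of Cxcl10 ended in 7 of 16 alternatives, 4 of them fits that left out 1 library (control CM replicate 2 or 3, or Tdo2high CM replicate 2 or 3; up to adjusted p = 0.0869), and with weakly expressed genes included its adjusted p was 0.106.

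The remaining 5 effectors did not pass. Ifi44 had 116.81, 110.14 and 113.07 against 108.11, 107.16 and 105.82 FPKM, and the apoptosis-related gene Xaf1 had 49.8 ± 0.380 and 47.4 ± 0.880 FPKM. Both were lower in every Tdo2high CM library, at adjusted p = 0.127 and 0.168 by limma. Rtp4, a receptor-transporting chaperone, had 102.21, 100.85 and 95.57 against 104.10, 104.82 and 99.09 FPKM, which overlapped. For Psmb10, a subunit of the immunoproteasome, the log2 fold change was -0.07 (95% interval -0.18 to 0.03), and for Ifi35, a partner of the protein Nmi, it was 0.01 (95% interval -0.07 to 0.08).

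On GRCm38.p6, as RefSeq places them, Ifi27 lies on chromosome 12 from 103434189 to 103440245, Irf7 on chromosome 7 from 141263183 to 141266499, Irf1 on chromosome 11 from 53770014 to 53778374 and Bst2 on chromosome 8 from 71534255 to 71537472. The changed members stand on separate chromosomes, except that Cxcl10 and Oas3 share chromosome 5, Ifit1 and Ifit2 chromosome 19, and Rsad2 and Ifi27 chromosome 12.

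The upstream genes of the pathway were counted next. Of 49 listed, 44 had a row and 36 were tested: 2 rose and 2 fell (11.1%, against 7.41% of all tested genes), with a median log2 fold change of -0.01. None of the 5 tested receptor chains passed. Of the kinases, Jak1 had 76.6 ± 1.40 FPKM with control CM and a log2 fold change of 0.03 (95% interval -0.03 to 0.10), and Jak2 105.8 FPKM and 0.04 (95% interval -0.02 to 0.09). Tyk2 had 12.18, 11.63 and 11.74 against 10.70, 10.52 and 11.55 FPKM, which did not overlap, but its adjusted p was 0.186 by limma.

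Stat3, which carries signals of the interleukin-6 family, rose from 51.47, 50.07 and 51.70 to 58.98, 59.84 and 58.96 FPKM. Its log2 fold change was 0.21 ± 0.03 (adjusted p = 0.00181 by limma), and its call held in all 16 alternatives. Tank, an adaptor of the kinase Tbk1, rose (0.13, adjusted p = 0.0374), but it lost the call in 10 of 16 alternatives, including every fit without 1 library. Pias4, a SUMO ligase that restrains STAT signalling, and Irf2bp2, a corepressor that binds Irf2, fell (-0.30 and -0.16, adjusted p = 0.0361 and 0.0225); their calls ended in 7 and 6 of 16. None of the other 13 tested adaptors and kinases passed, among them Mavs, which relays RIG-I signals, Tmem173 (STING), Cgas, Tlr3, Tbk1 and Ikbke. Nor did the feedback inhibitors Socs1 and Socs3 (log2 fold changes -0.02 and 0.04).

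A wider list of 61 interferon-stimulated genes outside the 41 was counted in the same way. Of 57 tested, 3 rose and 5 fell (14.0%, against 7.41% of all tested genes), with a median log2 fold change of -0.02. Among tested genes with a mean of at least 20 FPKM the share was 10.6%. The 57 were not cut at that mean, so their share is not like for like with it. The rises were those of Ifitm2, a membrane protein that blocks virus entry (0.24), Slfn2, a schlafen gene (0.24), and the GTPase Ifi47 (0.14). The falls were those of Ifi27l2a (-0.36), Gbp6 (-0.25), Ube2l6, which passes ISG15 to its ligases (-0.23), Oas1g (-0.16) and Gbp4 (-0.16). The calls of Ifi47 and Oas1g ended in 6 and 7 of 16 alternatives, and the other 6 held in all 16.

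A member and a close relative in this list also differed in direction. Ifi27 rose while Ifi27l2a, the gene of the same family whose span holds Ifi27 and whose reads may not be fully separable from it, fell from 66.91, 65.71 and 60.77 to 47.05, 50.39 and 52.29 FPKM. The ratio of Ifi27 to Ifi27l2a was 2.40, 2.50 and 2.70 in the control CM libraries and 4.76, 4.42 and 4.40 in the Tdo2high CM libraries. Irf7 and Irf9 are both members, with fold changes below 0 that differed in size, and their ratio went from 5.41 ± 0.167 to 4.47 ± 0.0700. The groups did not overlap in either of these ratios. Each had p = 0.1 in the exact permutation test, the smallest possible (0.114 adjusted over the 8 ratios). Ifi27 rose and Ifi27l2a fell without overlap, so the p-value of their ratio was fixed by those changes and adds no evidence. The ratios were chosen after the values were seen. The ratio of Rsad2 to its neighbour Cmpk2 was 0.712 ± 0.0489 and 0.766 ± 0.0288, groups that overlapped (p = 0.2, exact permutation test).

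**Figure D4:**
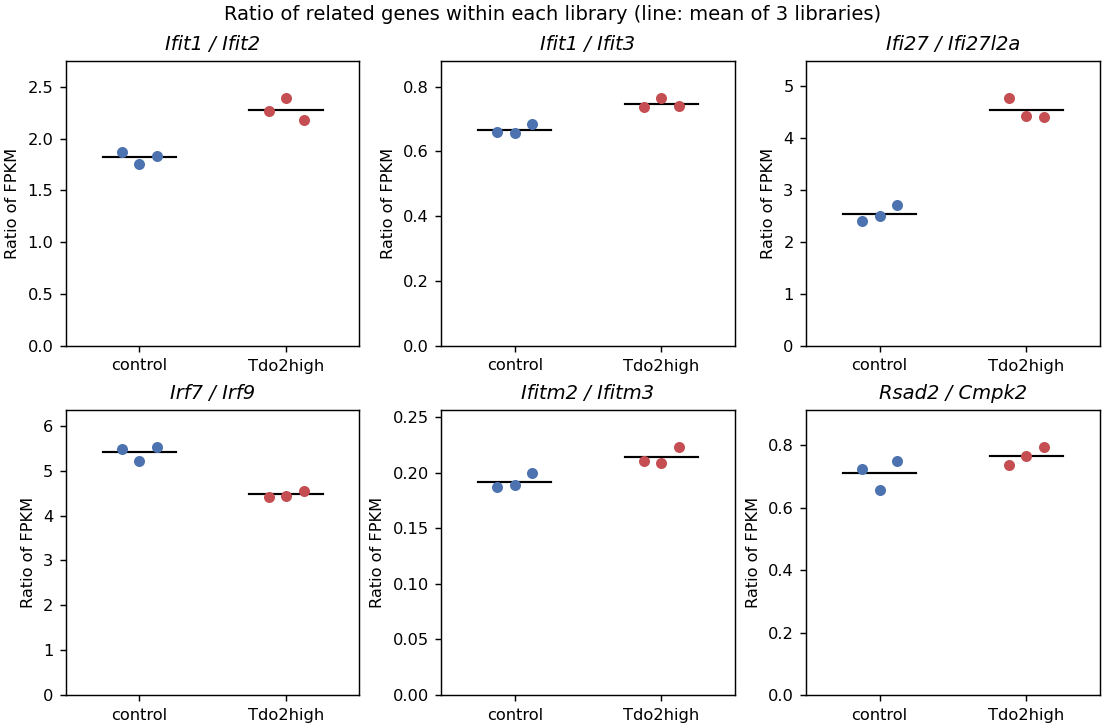
Ratio of FPKM between pairs of related genes within each library (y axes from 0), for 3 control CM and 3 Tdo2high CM libraries, with the mean of each group as a line. The groups do not overlap for Ifit1/Ifit2, Ifit1/Ifit3, Ifi27/Ifi27l2a, Irf7/Irf9 and Ifitm2/Ifitm3, and they overlap for Rsad2/Cmpk2.

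Libraries of one group differed in the members as a set. In control CM replicate 1, 34 of 39 members were above their group mean (87.2%, against 53.1% of all tested genes), with a median deviation of 0.03 on the log2 scale. In Tdo2high CM replicate 3, 7 of 39 were above (17.9%, against 51.2% of all tested genes), with a median deviation of -0.02. In the other 4 libraries 10 to 29 members were above. These shifts are of the size of the members' median fold change. Without Tdo2high CM replicate 3 that median was 0.0079 and without control CM replicate 1 it was 0.0005. Irf7, Irf1, Stat2, Bst2, Rsad2 and Ifi27 kept their calls without any 1 library.

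**Figure D5:**
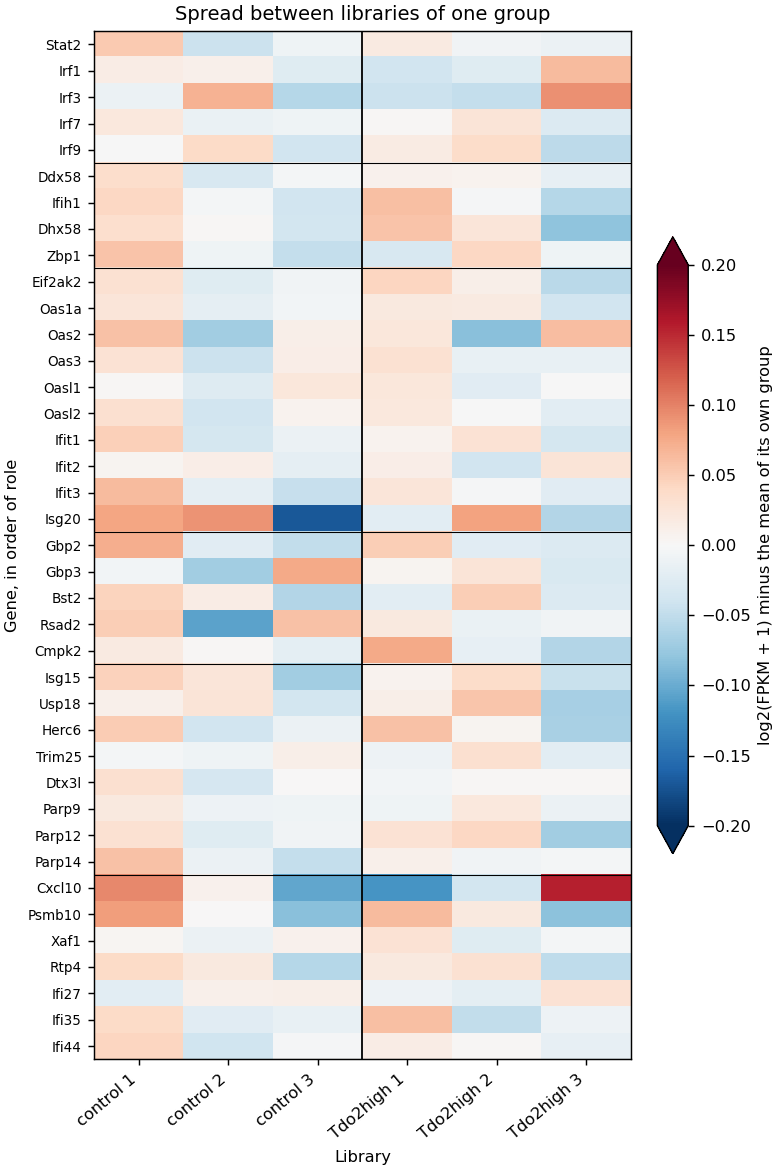
Difference between each library's log2(FPKM + 1) and the mean of its own group (colour) for 39 interferon-stimulated genes in order of role (rows) and 6 libraries (columns). Most rows are above their mean in control CM replicate 1 (34 of 39) and below it in Tdo2high CM replicate 3, where 7 of 39 are above.

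FPKM summed to between 438603 and 447415 per library. Of 7 genes with a row that were listed for the carcinoma line, Krt8, Krt18 and Vim were high (control CM means of 272, 356 and 1274 FPKM). The other 4 were low: Epcam and Cdh1 did not exceed 0.11 FPKM, and Krt14 and Trp63 did not exceed 0.54 FPKM. Of 7 fibroblast markers with a row, Col1a1, Col1a2 and Lum stayed at or under 0.12 FPKM, and the summed level of the 7 was 84.1 to 86.6 FPKM with control CM and 83.4 to 86.0 with Tdo2high CM. Of the 4 that were tested, 3 passed: Dcn fell by 30.0% and Fap by 24.0% between the means, while Pdgfra rose by 12.9% (adjusted p = 0.00114, 0.0385 and 0.00518 by limma). Pdgfrb did not pass, with means of 23.6 and 23.1 FPKM. The part of these genes in the members' changes was not tested. Of 11 immune markers with a row, 8 stayed at or under 0.11 FPKM, among them Lyz2, Csf1r, Laptm5, Cd3e and Siglech. The summed immune level was 10.6 to 12.1 FPKM with control CM and 15.9 to 17.0 with Tdo2high CM, and its part in the members' changes was not tested. Of the 3 that were tested, S100a8 alone passed, with means of 2.17 and 5.41 FPKM (adjusted p = 0.000192 by limma). Cd14 had means of 7.00 and 8.82 FPKM in groups that overlapped, and it did not pass (adjusted p = 0.0960 by limma). Cd68 had 2.04 and 1.83 FPKM, groups that also overlapped (adjusted p = 0.462 by limma). Of 5 endothelial markers with a row, 3 stayed at or under 0.11 FPKM. The summed endothelial level was 63.4 to 64.0 FPKM with control CM and 61.0 to 62.0 with Tdo2high CM. Eng had means of 55.2 and 52.9 FPKM in groups that did not overlap, and Egfl7 8.47 and 8.40 FPKM. Neither passed (adjusted p = 0.2135 and 0.9233 by limma), and their part in the members' changes was not tested. Fewer cells that express a gene and less RNA of it per cell cannot be told apart in these bulk samples.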

How the data were processed

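Messenger RNA of 6 samples was analysed, 3 per medium, with groups read from the sample titles and matched to the table's columns. PolyA RNA was primed with random hexamers, per the labels' protocols. The submitters' processing notes name GRCm38; which aligner, quantifier and annotation were used is not given in the sources used here. FPKM values were deposited by the authors for 16426 genes, rounded to 2 decimals, per the file headers. Of 243 low values (genes above 0 in 2 to 4 libraries, smallest value at least 0.08), 30.0% lay within 0.1 of a whole-number ratio to the smallest one, so whole reads were not recovered. Depth is unknown and no counting interval is given; the number of libraries limits the precision.

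Genes with at least 1 FPKM in at least 3 libraries (10804) were tested as log2(FPKM + 1) with limma 3.58.1 in R 4.3.3 (eBayes with trend, two-sided, Benjamini-Hochberg over all tested genes, threshold 0.05); intervals are 95% intervals of that fit. The members and lists were chosen with earlier results of these data known. Genes were named by rule: every changed member, the 3 most abundant of each role, and the changed genes of the other lists. Other members and other genes of the lists are named as examples. Mb21d1 was matched as Cgas by gene number. With 3 against 3, an exact permutation test cannot go below 0.1. The test was repeated with another pseudocount (0.1 or 0.5), filter (none, or 5 FPKM), scaling (median of ratios, TPM or quantiles) or variance model (no trend, or robust), with a replicate block, and without each library. One of the 8 ratios within libraries and 1 pathway gene are not reported here. Promoter sequences are from RefSeq (GRCm38.p6). Figures used matplotlib 3.10.9.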

Additional observations from a re-analysis of the deposited data

How the results depend on the processing

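Of the 10 changed members, Irf7, Irf1, Stat2, Bst2 and Ifi27 passed in all 16 alternatives, and Oas3, Ifit1, Ifit2, Rsad2 and Cxcl10 lost the call in at least 1; none of the 10 changed sign. Of the members that did not pass, Oas2, Oasl2 and Cmpk2 passed in at least 1. The members called higher (4) numbered 1 with no filter on low values, where 16397 genes were tested, and 2 by eBayes without trend. Without 1 library they numbered 2 to 4 (2 without control CM replicate 2 or 3 or Tdo2high CM replicate 2), and the members called lower (6) numbered 4 to 7. The median log2 fold change of the members ran from -0.0392 to 0.0079 without 1 library. The pathway genes called higher (2) numbered 1 on the TPM scale, by eBayes without trend, with no filter and without any 1 library. Those called lower (2) numbered 0 by eBayes without trend and with no filter, and 0 to 2 without 1 library. Calls over all genes fell from 362 higher and 439 lower to 199 and 195 with no filter, and to 248 and 277 by eBayes without trend. The causes of these shifts were not tested.

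The replicate block gave 3 members higher and 7 lower, and 1 pathway gene each way. Same-numbered libraries did not deviate together (r across genes -0.023, -0.0305 and 0.018). The labels do not say whether they were handled as pairs, and these values cannot decide it. With the block Cxcl10 lost its call (adjusted p = 0.0640) and Oas2 gained one (0.0414).

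Of the members that did not pass, 10 changed sign in some setting. Without 1 library the log2 fold change ran from -0.0501 to 0.0079 for Ifih1, -0.0515 to 0.0178 for Dhx58, -0.0342 to 0.0202 for Ifit3, -0.1255 to 0.0040 for Isg20, -0.0192 to 0.0533 for Gbp3, -0.0285 to 0.0290 for Isg15, -0.0016 to 0.0243 for Trim25, -0.0006 to 0.0315 for Dtx3l, -0.0061 to 0.0467 for Parp14 and -0.0248 to 0.0297 for Ifi35. Ifit3 had 0.0013 under median of ratios scaling. Isg15 and Ifi35 had -0.0041 and -0.0052 on the TPM scale and -0.0258 and -0.0109 under quantile normalization.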
